A study of Rattus norvegicus with 40 samples.

Results

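Channel and connexin genes that carry or couple the electrical activity of the heart were followed in the right ventricle of the rat under pressure load. The 6 genes are the pacemaker channel gene Hcn2, the potassium channel genes Kcnh2 and Kcnip2, the T-type calcium channel gene Cacna1g, and the connexin genes Gja1 and Gja5. Members were all array probes annotated to these 6 genes, of 14871 genes named on the array. They had 12 probes of 40939, on 21 spots. All 6 genes had at least 1 probe with enough values for a test, and 10 of the 12 probes had.

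The hearts came from 24 male Sprague-Dawley rats of 200 g in 4 groups of 6 animals. Carvedilol animals were injected with SU5416, an inhibitor of the receptors for vascular endothelial growth factor, at 20 mg/kg on a single occasion and spent 4 weeks in hypoxia. Back in room air they were then gavaged each day for 4 weeks with 15 mg/kg carvedilol, which blocks beta and alpha1 adrenoceptors. SuHx animals received the same SU5416 and hypoxia and were kept for 2 weeks at sea level. Hypoxia animals breathed 10% oxygen for 4 weeks without SU5416, and normal animals are labelled untreated. No time after hypoxia is given for hypoxia animals. In SuHx against hypoxia, SU5416 and time after hypoxia therefore cannot be told apart, and in carvedilol against hypoxia the carvedilol treatment is added to both. No vehicle group was analysed here, time since hypoxia was 4 weeks in carvedilol and 2 weeks in SuHx animals, and carvedilol was dissolved in 20% dimethyl sulfoxide, so that carvedilol, its solvent and the longer recovery cannot be told apart. SuHx is commonly studied as right heart failure and hypoxia by itself as adaptation to load.

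Contraction of a ventricle is set off by an action potential that passes from cell to cell. Sodium and calcium channels depolarise the cell, potassium channels return it to rest, and gap junctions built of connexins carry the current to the next cell. Pacemaker channels of the HCN family open on hyperpolarisation and bind cyclic AMP, and they are best known from the sinus node. In hypertrophied and failing ventricles of several species, changes of potassium channels, pacemaker channels and connexins have long been studied as electrical remodelling.

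Promoter sequences were set beside the values because 4 of the 6 genes had an entry in the RefSeq promoter table of build GRCr8, and because the loaded groups had come through hypoxia. The window of Kcnip2 lay inside the gene as the gene table gives it and is not shown. Each sequence is read 5′ to 3′ on the gene's strand and stops before the annotated gene. Capitals mark the core of the hypoxia response element, ACGTG, and the GC box bound by Sp1, GGGCGG, on either strand.
Hcn2, chr7:10639458-10639707, minus strand: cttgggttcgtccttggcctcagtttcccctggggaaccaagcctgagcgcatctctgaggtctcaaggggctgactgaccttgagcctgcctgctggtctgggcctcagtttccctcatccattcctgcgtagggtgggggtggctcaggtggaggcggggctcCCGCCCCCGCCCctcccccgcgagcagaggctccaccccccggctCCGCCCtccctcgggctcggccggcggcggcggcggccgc
Gja1, chr20:36302314-36302489, plus strand: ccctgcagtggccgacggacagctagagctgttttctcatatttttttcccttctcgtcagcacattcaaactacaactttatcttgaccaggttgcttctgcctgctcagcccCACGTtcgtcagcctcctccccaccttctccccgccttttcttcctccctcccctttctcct
Gja5, chr2:187290977-187291226, plus strand: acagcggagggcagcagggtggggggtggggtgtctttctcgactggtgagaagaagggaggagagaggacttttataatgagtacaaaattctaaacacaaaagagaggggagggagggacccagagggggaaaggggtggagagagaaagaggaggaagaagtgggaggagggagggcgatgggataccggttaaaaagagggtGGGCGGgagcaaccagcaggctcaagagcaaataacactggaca

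The Hcn2 window held 3 GC boxes and the Gja5 window 1, while ACGTG stood once, in the 176 bases shown for Gja1. GGGCGG was found in 30.5% of all 33469 promoters of the table and ACGTG in 16.6%, in the 250 bases before the start. G and C made up 71.6% of the Hcn2 window, 53.4% of the Gja1 window and 54.8% of the Gja5 window, against a median of 51.2% over all promoters. The matches are letters in a window and were not tested for binding. Kcnh2 and Cacna1g are named only.

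Each array compared the RNA of 1 heart, in the red channel, with a reference RNA pooled from rat cell lines, in the green channel. Values are log2 ratios of heart over reference, so 1 unit is a doubling, and a value belongs to its own probe and cannot be ranked against that of another probe. There were 40 arrays, of which 8 were of carvedilol, 12 of SuHx, 12 of hypoxia and 8 of normal animals, and arrays of 1 animal were averaged. Between 19264 and 35758 spots per array held a value. Animal means of this number lay between 26167 and 31670 in carvedilol, between 27270 and 29637 in SuHx, between 22759 and 28400 in hypoxia and between 28192 and 35758 in normal animals. All 3 loaded groups had fewer values than normal animals (exact permutation tests, two-sided, n = 6 each, adjusted over 6 comparisons: p = 0.0216 for carvedilol, 0.0195 for SuHx and 0.0195 for hypoxia). Empty cells decide which probes are measured, and the part of these differences in the results below was not tested. The labelled tissue was borne out by 18 of 18 cardiomyocyte markers that could be tested, whose mean log2 ratio per animal lay between 3.90 and 6.61. Of 11 markers of conduction and pacemaker cells only 4 could be tested, Tbx3, Id2, Gjc1 and Etv1, and their mean per animal lay between -0.54 and 0.73. In bulk tissue, fewer cells of a type and less RNA per cell cannot be told apart.

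Differences between groups come from limma fits over all 24 animals, with p-values adjusted over 9775 genes, or over 21567 probes for single probes. A gene is called, or said to have risen or fallen, at an adjusted p under 0.05. In hypoxia against normal, 4 of the 6 genes fell, Hcn2, Kcnh2, Gja1 and Gja5, and none rose, beside 11.2% of all tested genes lower and 0.839% higher. In SuHx against normal none of the 6 passed in limma, beside 0.522% of all genes lower and 0.389% higher. There 2 of the 6 had an unadjusted p under 0.05, Kcnip2 and Cacna1g, beside 12.3% of all genes. In carvedilol against normal Kcnh2 and Gja1 fell and Gja5 rose, beside 8.34% lower and 2.18% higher. In SuHx against hypoxia 4 rose, Hcn2, Kcnip2, Cacna1g and Gja5, and none fell, beside 9.46% higher and 1.78% lower. In carvedilol against hypoxia Gja5 rose and no other member was called, beside 10.1% higher and 6.28% lower. In carvedilol against SuHx Hcn2 fell and no other member was called, beside 0.552% lower and 0.297% higher. Groups did not overlap for Hcn2 and Kcnh2 in hypoxia against normal (6.25% of all genes lower without overlap) and for Kcnh2 and Gja1 in carvedilol against normal (7.52%). Nor did they for Hcn2, Kcnip2 and Cacna1g in SuHx against hypoxia (5.86% higher), for Gja5 in carvedilol against hypoxia (4.66% higher) and for Hcn2 in carvedilol against SuHx (2.1% lower). The last of these rests on 1.046 in carvedilol animal 3, a mean of 2 probes, against 1.054 in SuHx animal 3, which had a value on 1 probe. In SuHx against hypoxia Kcnip2 was measured in 4 and 5 animals and Cacna1g in 4 and 4. Groups of fewer animals separate more easily, and the shares pool all tested genes whatever their number of animals. The comparisons share their groups and are not independent of each other. Over all genes the median difference was -0.32 for carvedilol, -0.12 for SuHx and -0.38 for hypoxia, each against normal, and 0.26 for SuHx against hypoxia. Quantile normalisation put these medians at -0.25, -0.11, -0.28 and 0.16.

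**Figure D1:**
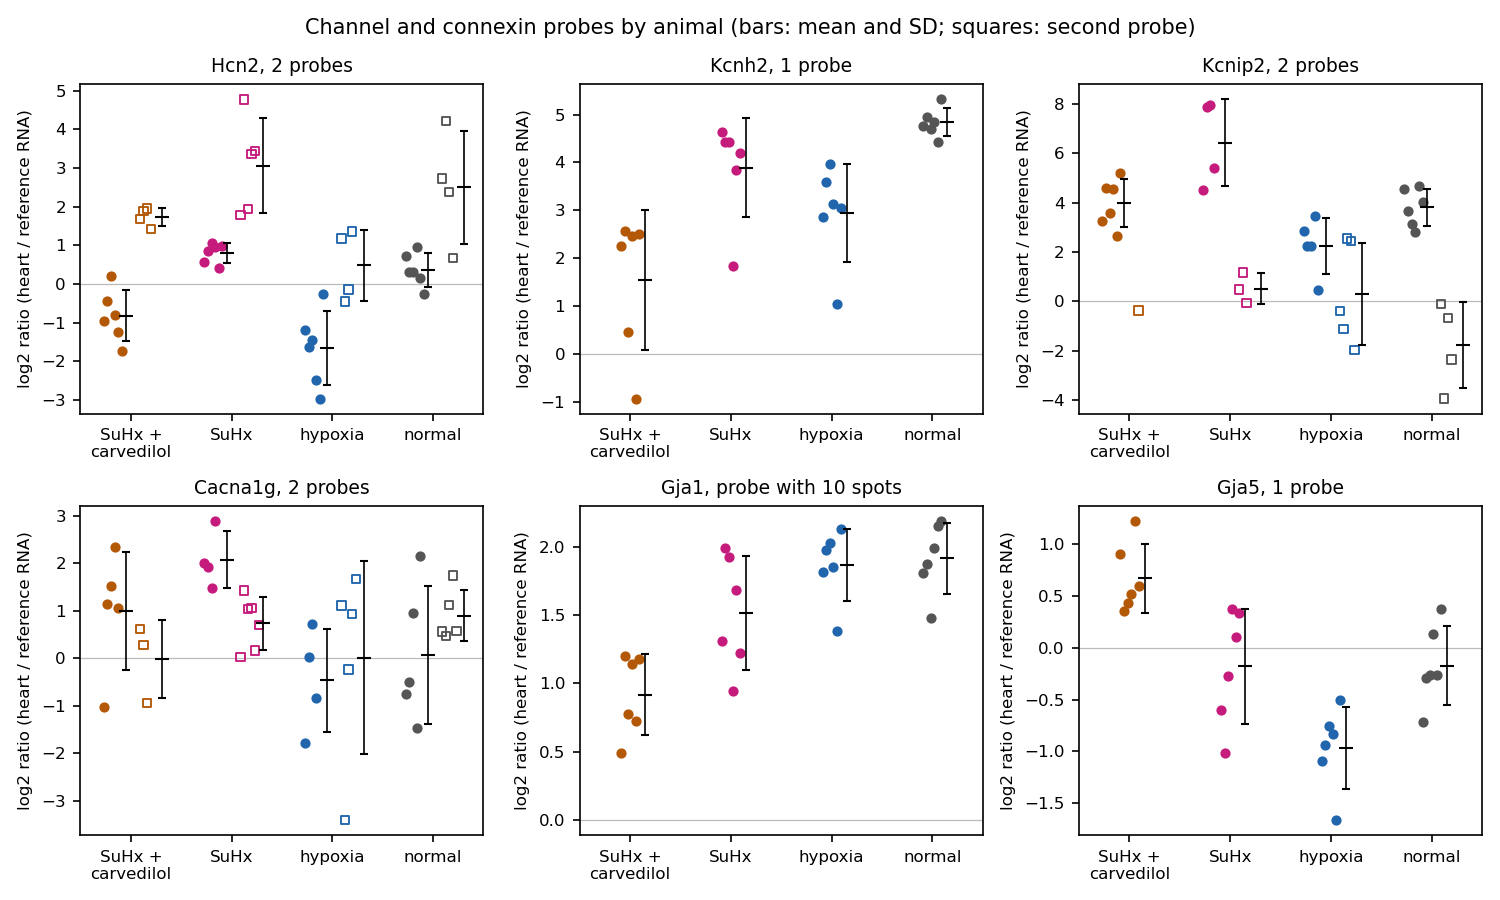
Log2 ratio of heart over reference RNA (y axis) per animal in the 4 groups (x axis), for the probes of the 6 genes. Filled circles are the probe described first in the text, open squares the second probe where there is one, bars the mean and SD; Gja1 is shown by its probe with 10 spots. Gja5 has its lowest values in hypoxia and its highest in carvedilol animals, and Kcnh2 has its highest mean in normal animals.

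Hcn2 was lower in hypoxia than in normal and SuHx hearts, and lower in carvedilol than in SuHx hearts. The gene encodes a pore subunit of the pacemaker current. Its probe A_44_P125226, with a value on 39 of 40 arrays, lay between -1.72 and 0.21 in carvedilol (median -0.87), between 0.40 and 1.05 in SuHx (median 0.91), between -2.96 and -0.25 in hypoxia (median -1.54) and between -0.26 and 0.95 in normal animals (median 0.30). Hypoxia and normal animals met only at 1 point, where hypoxia animal 6 stood at -0.25 and normal animal 6 at -0.26. All SuHx animals lay above all hypoxia animals and all carvedilol animals.

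On this probe the difference was -2.02 ± 0.37 (SE) in hypoxia against normal, 4.05-fold lower (limma, adjusted p = 0.00145), beside 9.78% of all probes lower. It was 2.46 ± 0.37 in SuHx against hypoxia (adjusted p = 0.000235), beside 8.52% of all probes higher, and both differences kept their calls when any 1 animal of the 2 groups was left out. In carvedilol against SuHx it was -1.63 ± 0.37 (adjusted p = 0.0285), beside 0.709% of all probes lower, and in carvedilol against normal -1.18 ± 0.37 (adjusted p = 0.0433). These last 2 calls were each lost in 9 of 12 omissions of 1 animal, with adjusted p up to 0.0649 and 0.0943. The call against SuHx held only without carvedilol animals 2, 3 or 4, and that against normal only without carvedilol animals 2 or 3 or normal animal 6. The order of the groups was SuHx, normal, carvedilol, hypoxia. The first pair of neighbours differed by 0.44 (95% interval -0.32 to 1.20) and the last by 0.84 (0.08 to 1.59, adjusted p = 0.127), without a call for either. Carvedilol against hypoxia passed without hypoxia animal 6 (adjusted p = 0.0263).

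The second Hcn2 probe, A_43_P15654, had values in 4 carvedilol, 5 SuHx, 4 hypoxia and 4 normal animals. It averaged 1.73 ± 0.24 in carvedilol, 3.06 ± 1.23 in SuHx, 0.48 ± 0.92 in hypoxia and 2.50 ± 1.46 in normal animals (SD). It gave -2.01 ± 0.72 in hypoxia against normal (adjusted p = 0.0889) and 2.58 ± 0.69 in SuHx against hypoxia (adjusted p = 0.0259). The hypoxia against normal value passed without normal animal 6 (adjusted p = 0.0325). The SuHx against hypoxia value lost its call without any 1 of SuHx animals 2, 5 and 6 and hypoxia animals 3 and 4 (adjusted p up to 0.0661). In carvedilol against SuHx the groups overlapped on this probe, with a difference of -1.33 ± 0.69 (adjusted p = 0.347). The gene value is the mean of whichever probe had a value, and carvedilol animals 2 and 6, SuHx animal 3, hypoxia animals 1 and 6 and normal animals 2 and 4 rest on A_44_P125226 alone, so it mixes probe sets. That value, on which the gene counts above rest, gave -1.90 ± 0.42 (adjusted p = 0.00563) in hypoxia against normal, 2.55 ± 0.42 (adjusted p = 0.000632) in SuHx against hypoxia and -1.78 ± 0.42 (adjusted p = 0.0495) in carvedilol against SuHx. The carvedilol call was lost in 10 of 12 omissions, with adjusted p up to 0.115, and held only without carvedilol animals 3 or 4. With the place of each animal in the order of its group as a block, a pairing that no label gives, its adjusted p was 0.0921.

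Kcnh2 encodes the pore of the rapid delayed rectifier, a current that ends the action potential. Its 1 probe lay between -0.93 and 2.56 in carvedilol (median 2.36), between 1.84 and 4.64 in SuHx (median 4.31), between 1.04 and 3.98 in hypoxia (median 3.09) and between 4.43 and 5.32 in normal animals (median 4.81). Normal hearts thus formed a narrow band above every carvedilol and every hypoxia animal. Spread was wide in the loaded groups, with an SD of 1.46 in carvedilol, 1.04 in SuHx and 1.02 in hypoxia, against 0.29 in normal animals.

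Kcnh2 fell by 3.28 ± 0.58 in carvedilol against normal, 9.73-fold (adjusted p = 0.00104), the largest difference of a member against normal, and the call held without any 1 animal. In hypoxia against normal it fell by 1.89 ± 0.58, 3.70-fold (adjusted p = 0.0356). That call was lost without any 1 of the 6 normal animals and without hypoxia animal 1 or 5 (adjusted p up to 0.0841). It was also lost without both hypoxia animals whose label number is over 100, at -1.44 (adjusted p = 0.136). Carvedilol against SuHx gave -2.34 ± 0.58 (adjusted p = 0.0522), just outside the threshold over genes and at 0.0458 over probes, and it passed over genes without carvedilol animal 2 or 4 or SuHx animal 4 (adjusted p = 0.0222 at the lowest). Carvedilol against hypoxia gave -1.39 ± 0.58, which passed without hypoxia animal 5 (adjusted p = 0.034) and without both hypoxia animals numbered over 100, at -1.84 (adjusted p = 0.0451). Against only those hypoxia animals, which share such numbers with all carvedilol animals, it was -0.49 (adjusted p = 0.74). SuHx against normal gave -0.94 (95% interval -2.14 to 0.26). The order of the groups was normal, SuHx, hypoxia, carvedilol, and no neighbouring pair in it passed the gene test (adjusted p = 0.562, 0.314 and 0.104).

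Kcnip2 encodes KChIP2, a subunit that brings Kv4 channels of the transient outward current to the membrane. Its probe A_44_P468380 gave 4.50, 7.88, 7.94 and 5.39 in 4 SuHx animals, and 2.85, 2.26, 2.24, 3.45 and 0.45 in 5 hypoxia animals. In the 6 carvedilol animals it lay between 2.66 and 5.20 (median 4.07) and in the 6 normal animals between 2.83 and 4.67 (median 3.83). All measured SuHx hearts stood above all hypoxia hearts, and carvedilol and normal hearts covered the same range.

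The rise in SuHx against hypoxia was 4.18 ± 0.72, 18.1-fold (adjusted p = 0.00112), and it kept its call without any 1 animal. SuHx against normal gave 2.62 ± 0.69 (adjusted p = 0.0766), which passed without SuHx animal 1 (3.26, adjusted p = 0.0416). Carvedilol against SuHx gave -2.45 ± 0.69 (adjusted p = 0.0997), and carvedilol against normal 0.17 (95% interval -1.13 to 1.46). Hypoxia against normal gave -1.56 ± 0.65 (adjusted p = 0.125). The order of the groups was SuHx, carvedilol, normal, hypoxia, with no call between neighbours. The second probe, A_44_P144288, did not repeat the rise of SuHx over hypoxia. It read 0.48, 1.17 and -0.07 in 3 SuHx animals, averaging 0.52 ± 0.62, and averaged 0.31 ± 2.08 in 5 hypoxia animals (SD). Their difference was 0.22 (p = 0.893, exact permutation test, two-sided, adjusted p = 0.929 over 9 tests of this kind). With so few animals the test cannot give a very small p. Against 4 normal animals, which averaged -1.76 ± 1.73, the SuHx difference was 2.29 (p = 0.0571, exact permutation test, adjusted p = 0.429). The first probe gave 2.62 there. All 3 SuHx animals lay above the 4 normal animals, of which the highest stood at -0.10, so the test could give no smaller p. Hypoxia against normal was 2.07 on this probe (p = 0.19, exact permutation test, adjusted p = 0.429), where the first probe gave -1.56.

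Cacna1g encodes the Cav3.1 pore of T-type calcium channels, which open at low voltage and serve pacemaking. Its probe A_44_P554973 gave 2.01, 1.93, 1.47 and 2.89 in 4 SuHx animals, and -1.78, 0.03, 0.73 and -0.85 in 4 hypoxia animals. In 5 carvedilol animals it gave -1.03, 1.14, 1.52, 2.34 and 1.06, and in 5 normal animals -0.75, -0.49, 0.95, -1.47 and 2.15. SuHx and hypoxia hearts did not overlap, while carvedilol and normal hearts ranged across both.

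Cacna1g rose by 2.55 ± 0.78 in SuHx against hypoxia, 5.84-fold (adjusted p = 0.0452), and no other comparison passed. The call was lost in 8 of 12 omissions, those of SuHx animals 1, 2, 4, 5 and 6 and of hypoxia animals 1, 2 and 6, with adjusted p up to 0.12. SuHx animal 2 had no Cacna1g value, so its omission moved only the fit and the adjustment over all genes. The order of the groups was SuHx, carvedilol, normal, hypoxia, again with no call between neighbours. SuHx against normal gave 2.00 ± 0.74 (adjusted p = 0.248). Without both hypoxia animals numbered over 100, SuHx against hypoxia stood at 2.42 (adjusted p = 0.0932). The second probe, A_44_P123566, averaged 0.73 ± 0.55 in 6 SuHx animals and 0.01 ± 2.04 in 5 hypoxia animals (SD). That difference was 0.72 (p = 0.567, exact permutation test, two-sided, adjusted p = 0.813 over 9 tests). On the second probe SuHx against normal was -0.16 (p = 0.632, exact permutation test, adjusted p = 0.813) and carvedilol against normal -0.91 (p = 0.143, exact permutation test, adjusted p = 0.429), where the first probe gave 2.00 and 0.93. Its order of groups was normal, SuHx, hypoxia, carvedilol. Hypoxia animal 2 stood at -3.41 on this probe, and the other 4 hypoxia animals between -0.24 and 1.67.

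**Figure D2:**
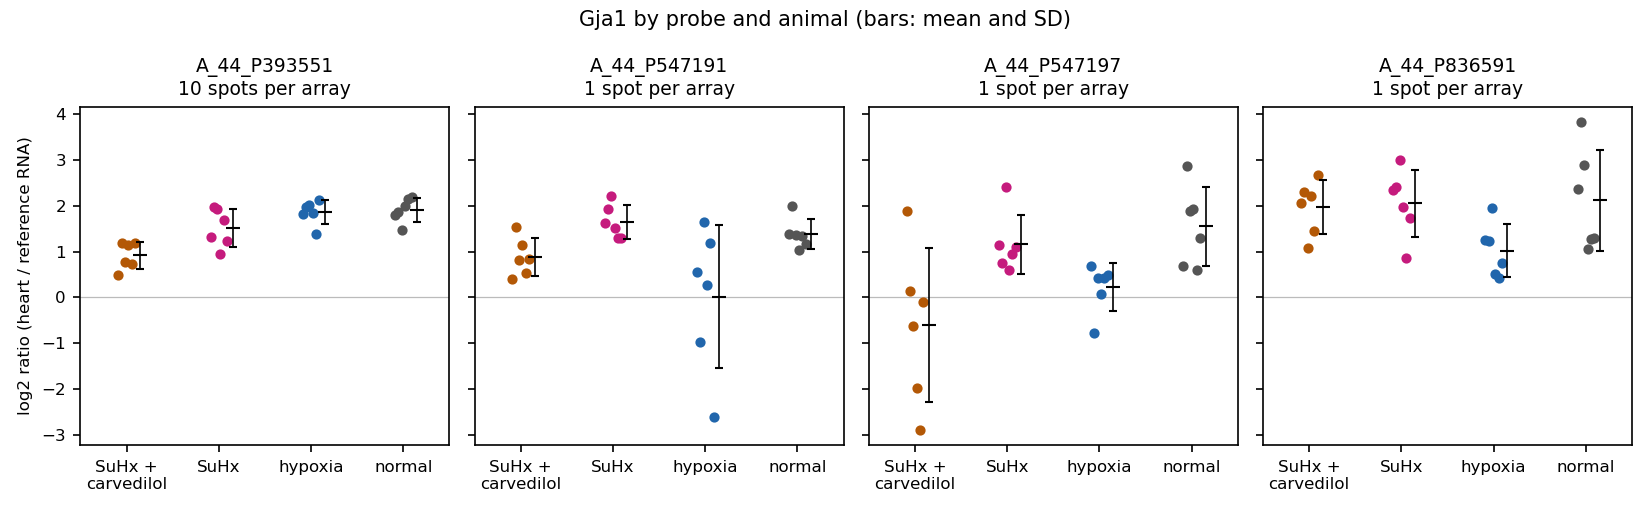
Log2 ratio (y axis) of the 4 Gja1 probes per animal in the 4 groups (x axis), with bars for mean and SD. On the probe with 10 spots, hypoxia and normal animals cover the same range and all carvedilol animals lie below them; the 3 probes with 1 spot are wider and order the groups differently.

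Gja1 encodes connexin 43, the main gap junction protein between ventricular muscle cells. The answer for this gene turned on the probe. A_44_P393551 was printed on 10 spots of every array and read on all of them. It lay between 0.49 and 1.20 in carvedilol (median 0.96), between 0.95 and 1.99 in SuHx (median 1.50), between 1.38 and 2.13 in hypoxia (median 1.92) and between 1.47 and 2.19 in normal animals (median 1.93). Every carvedilol heart stood below every hypoxia heart and every normal heart, and SuHx hearts lay across both.

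On this probe Gja1 fell by 1.00 ± 0.21 in carvedilol against normal, 1.99-fold (adjusted p = 0.004), beside 7.33% of all probes. It fell by 0.95 ± 0.21 in carvedilol against hypoxia (adjusted p = 0.00299), beside 6.23% of all probes, and the groups did not overlap on this probe. The share of probes without overlap was not counted. By gene value 2.48% of all genes lay lower without overlap, and Gja1 was not among them. Both calls held without any 1 animal of their groups. Against only the hypoxia animals numbered over 100, as all carvedilol animals are, the second difference was -0.84 with 2 animals on the hypoxia side (adjusted p = 0.0766). Hypoxia against normal gave -0.05 (95% interval -0.48 to 0.38), an interval that excludes a fall as large as that of carvedilol hearts. SuHx against normal gave -0.40 (-0.83 to 0.03) and carvedilol against SuHx -0.59 ± 0.21 (adjusted p = 0.149). The order of the groups was normal, hypoxia, SuHx, carvedilol, with no call between neighbours.

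The 3 probes with 1 spot each gave lower means in hypoxia than in normal hearts, none of them called. A_44_P547191 gave -1.37 ± 0.48 (adjusted p = 0.0681), A_44_P547197 -1.33 ± 0.58 (adjusted p = 0.145) and A_44_P836591 -1.10 ± 0.44 (adjusted p = 0.114). The first passed without hypoxia animal 3 or 5 (adjusted p = 0.0195 at the lowest). The mean over the 4 probes, -0.96 ± 0.29 in hypoxia against normal (adjusted p = 0.0316), was therefore made by these 3 and not by the probe with 10 spots. That call was lost without any 1 of hypoxia animals 2 and 6 and normal animals 2 and 3 (adjusted p up to 0.0889), and without both hypoxia animals numbered over 100 (adjusted p = 0.1). In carvedilol against normal the 4 probes averaged -0.95 ± 0.29 (adjusted p = 0.0359), of which A_44_P547197 gave -2.15 ± 0.58 (adjusted p = 0.0211, and 0.0583 without normal animal 2), A_44_P547191 -0.50 and A_44_P836591 -0.15. The mean lost its call in 6 of 12 omissions, those of carvedilol animals 3, 4 and 5 and normal animals 1, 2 and 3, with adjusted p up to 0.0977. A_44_P547191 rose by 1.64 ± 0.48 in SuHx against hypoxia (adjusted p = 0.0295), where the probe with 10 spots gave -0.35 ± 0.21 (adjusted p = 0.297). The A_44_P547191 call was lost without any 1 of SuHx animals 1, 2 and 3 and hypoxia animal 2. The fall of the probe with 10 spots in carvedilol against hypoxia was not repeated by the mean over the 4 probes, 0.01 ± 0.29 (adjusted p = 0.981). There A_44_P547191 gave 0.87 (adjusted p = 0.232), A_44_P836591 0.94 (adjusted p = 0.154) and A_44_P547197 -0.82 (adjusted p = 0.371).

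**Figure D3:**
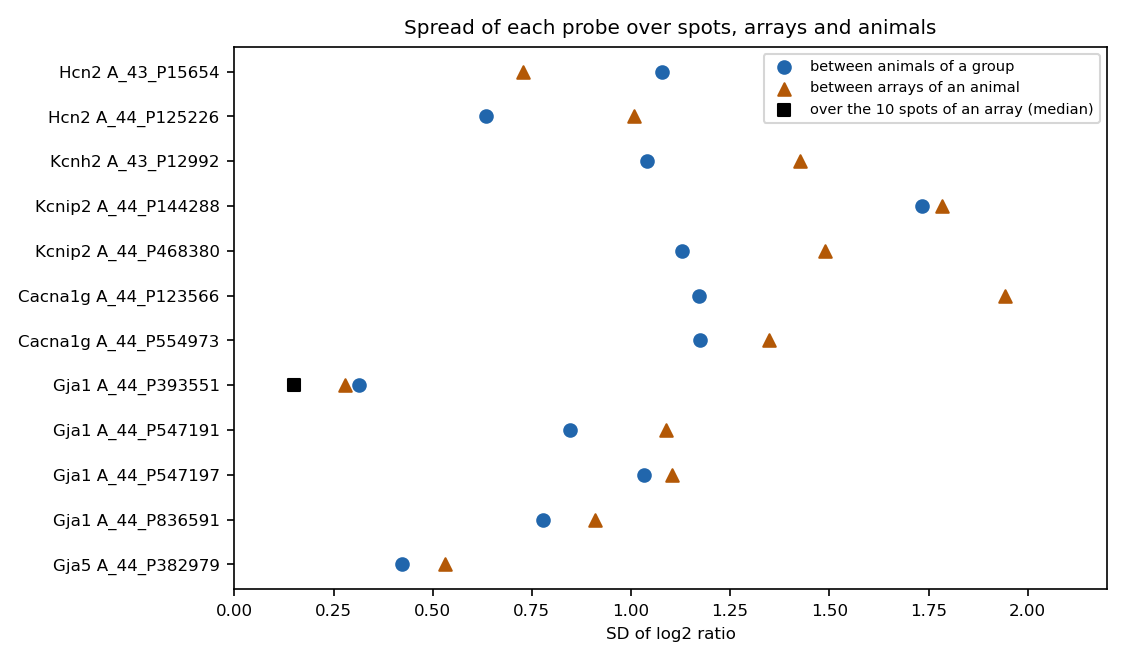
SD of the log2 ratio (x axis) of each of the 12 probes (rows), between animals of a group after arrays were averaged (circles), between arrays of 1 animal (triangles) and, for the Gja1 probe with 10 spots, over the spots of an array (square). The Gja1 probe with 10 spots has the smallest SD between arrays, 0.28, and the others reach 1.94.

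Replicate spots and arrays show how far single values can be trusted. Over the 10 spots of an array the Gja1 probe had a median SD of 0.15 (0.03 to 0.55). Between arrays of 1 animal its SD was 0.28, and between animals of a group 0.32. For the other 3 Gja1 probes the SD between arrays of 1 animal was 0.91 to 1.10, as wide as that between animals. Gja5 was the steadiest of the probes with 1 spot, at 0.53 between arrays and 0.42 between animals. Kcnh2, at 1.43 and 1.04, and the Kcnip2 probe A_44_P468380, at 1.49 and 1.13, were less steady. Of the 11 probes with 1 spot, only A_43_P15654 of Hcn2 varied less between arrays of an animal, 0.73, than between animals, 1.08.

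Gja5 encodes connexin 40, known from atrial muscle, the conduction system and arterial endothelium. Its 1 probe lay between 0.35 and 1.23 in carvedilol (median 0.56), between -1.02 and 0.38 in SuHx (median -0.08), between -1.66 and -0.51 in hypoxia (median -0.89) and between -0.71 and 0.37 in normal animals (median -0.26). Carvedilol hearts stood above every hypoxia heart and met SuHx and normal hearts only at their edges. SuHx and normal hearts covered the same range.

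Gja5 rose by 1.64 ± 0.26 in carvedilol against hypoxia, 3.11-fold (adjusted p = 0.00016), and kept this call without any 1 animal. Against only hypoxia animals 5 and 6, which share label numbers over 100 with all carvedilol animals, it rose by 1.76 (adjusted p = 0.00588). In carvedilol against normal it rose by 0.84 ± 0.26 (adjusted p = 0.0371), a call lost without any 1 of carvedilol animals 1, 5 and 6 and normal animals 1, 2, 3 and 5 (adjusted p up to 0.0905). In hypoxia against normal it fell by 0.80 ± 0.26 (adjusted p = 0.0455, and 0.0501 over probes). In SuHx against hypoxia it rose by 0.79 ± 0.26 (adjusted p = 0.0494, and 0.0517 over probes). These 2 calls were each lost in 9 of 12 omissions, with adjusted p up to 0.104 and 0.121. The fall held only without hypoxia animals 3 or 6 or normal animal 1, and the rise only without SuHx animals 1 or 2 or hypoxia animal 6. Without both hypoxia animals numbered over 100 they stood at -0.74 (adjusted p = 0.0873) and 0.73 (adjusted p = 0.0961). SuHx and normal differed by -0.01 (95% interval -0.54 to 0.52), and the order of the groups was carvedilol, normal, SuHx, hypoxia.

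**Figure D4:**
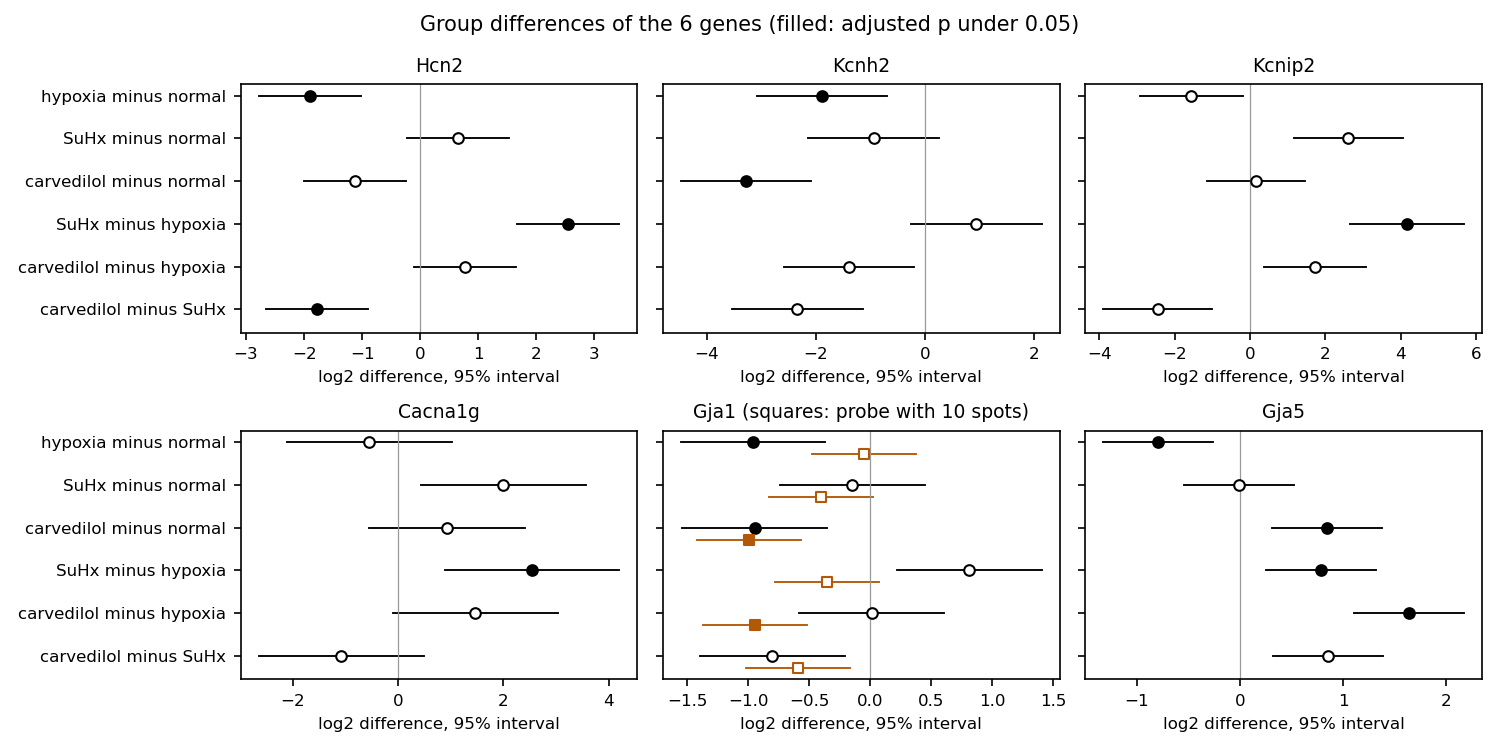
Log2 difference with its 95% interval (x axis) for the 6 comparisons (rows) of each gene; filled symbols have an adjusted p under 0.05. Hcn2 lies at -1.90 in hypoxia minus normal and at 2.55 in SuHx minus hypoxia, and the Gja1 probe with 10 spots (squares) lies near 0 in hypoxia minus normal, where the mean over its 4 probes is -0.96.

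Markers of other cells moved with some of these results. Gja5 is itself a marker of arterial endothelium, and the 5 other tested markers, Gja4, Hey1, Sox17, Unc5b and Notch4, had a mean log2 ratio per animal of 0.97 to 2.81 in carvedilol, 1.30 to 2.27 in SuHx, 0.11 to 1.21 in hypoxia and 1.30 to 2.00 in normal animals. Of the 6 arterial markers with Gja5, 2 fell in hypoxia against normal, Gja5 and the guidance receptor gene Unc5b, and none rose. In SuHx against hypoxia 3 rose, Gja5, Unc5b and Notch4, and in carvedilol against hypoxia 4, Gja5, Gja4, Unc5b and Notch4. Gja5 also stood in a list of 9 atrial markers, 8 of them tested, whose mean per animal was 1.40 to 3.97 in carvedilol, 1.62 to 2.81 in SuHx, 1.29 to 2.06 in hypoxia and 1.61 to 3.06 in normal animals. In carvedilol against normal Gja5 rose with Unc5b among the arterial markers and with Nppa among the atrial ones. Of the 8 atrial markers, Myl7, Dkk3 and Gja5 fell in hypoxia against normal, beside the 11.2% of all genes given above, and the same 3 rose in SuHx against hypoxia, beside 9.46%. In carvedilol against hypoxia Myl7, Nppa, Dkk3 and Gja5 rose and Nr2f1 fell, beside 10.1% and 6.28%. Of 18 cardiomyocyte markers 11 rose in carvedilol against normal and none fell, with a mean per animal of 5.30 to 6.61 in carvedilol and 4.11 to 4.98 in normal animals. In the same comparison Kcnh2 and Gja1 fell. In carvedilol against hypoxia 14 of the 18 rose, and in carvedilol against SuHx 5, with none falling in either. In hypoxia against normal 1 cardiomyocyte marker fell, Ryr2, and none rose. Of 11 tested endothelial markers 5 rose in carvedilol against hypoxia, with a mean per animal of 3.69 to 4.34 in carvedilol and 2.48 to 3.69 in hypoxia animals. Among the same 11, Vwf, Cldn5 and Esam rose in carvedilol against normal and Cldn5 and Eng in SuHx against hypoxia. Eng fell in hypoxia against normal, and none was called the other way in these comparisons. Of 8 tested macrophage markers 5 rose in carvedilol and 3 in SuHx, each against hypoxia, with a mean per animal of 2.15 to 2.87 in carvedilol, 1.94 to 2.87 in SuHx and 0.76 to 1.27 in hypoxia animals. Of 18 cardiomyocyte markers 2 rose in SuHx against hypoxia, Mybpc3 and Ryr2. Of 8 tested fibroblast markers 3 rose in SuHx and 1 in carvedilol, each against hypoxia. Of 8 tested smooth muscle and pericyte markers 0 and 3 rose there. Over all genes 9.46% rose in SuHx and 10.1% in carvedilol against hypoxia. In carvedilol 2.18% rose against normal and 0.297% against SuHx, and in hypoxia 11.2% fell against normal. The part of these markers in the results was not tested.

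The wider set of electrical genes held 85 entries in 7 lists, of which 43 were tested. In hypoxia against normal 4 of the 37 tested genes that are not members fell, with a median of -0.61. With the members 8 of the 43 fell and none rose, beside 11.2% of all genes lower and 0.839% higher. The median of the 43 was -0.74, against -0.38 over all genes. Besides the 4 members those that fell were Kcnj12, an inward rectifier channel, which fell by 1.00 ± 0.26 (adjusted p = 0.0146), the junction protein gene Jup (-0.96 ± 0.19, adjusted p = 0.00269), the cardiac transcription factor gene Gata4 (-0.54 ± 0.17, adjusted p = 0.0362) and Ank3, whose ankyrin anchors sodium channels (-1.24 ± 0.36 with 5 hypoxia animals, adjusted p = 0.031). Of these Kcnj12 and Jup kept their calls without any 1 animal. Gata4 lost its call in 8 of 12 omissions and Ank3 without any 1 of hypoxia animals 3 and 4 and normal animals 2 and 6. Gja4, at -1.19 ± 0.42 (adjusted p = 0.065), Kcnj3, at -1.37 ± 0.47 (adjusted p = 0.0577), Cacna2d1, at -0.45 ± 0.15 (adjusted p = 0.0526), and Cacna1c, at -1.28 ± 0.45 (adjusted p = 0.0668), did not pass. Nor did Hcn3 (-1.22), Scn4b (-1.40) and Kcnab1 (1.37).

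In SuHx against normal none of the 43 was called by limma, beside 0.522% of all genes lower and 0.389% higher. An unadjusted p under 0.05 was found for 11 of the 43, beside 12.3% of all genes. The median was -0.01, against -0.12 over all genes. Lowest in adjusted p beside the members were Kcnj12 (0.85, adjusted p = 0.126), the ATP-sensitive channel gene Kcnj11 (1.52, adjusted p = 0.138) and the sodium channel subunit gene Scn3b (1.48, adjusted p = 0.138). Gata4 stood at 0.50 (adjusted p = 0.163), Ctnnb1 at -0.48 (adjusted p = 0.224), Gja3 at -1.61, Cacna1c at -0.66, Cacnb3 at -0.28 and Tbx3 at -0.76.

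**Figure D5:**
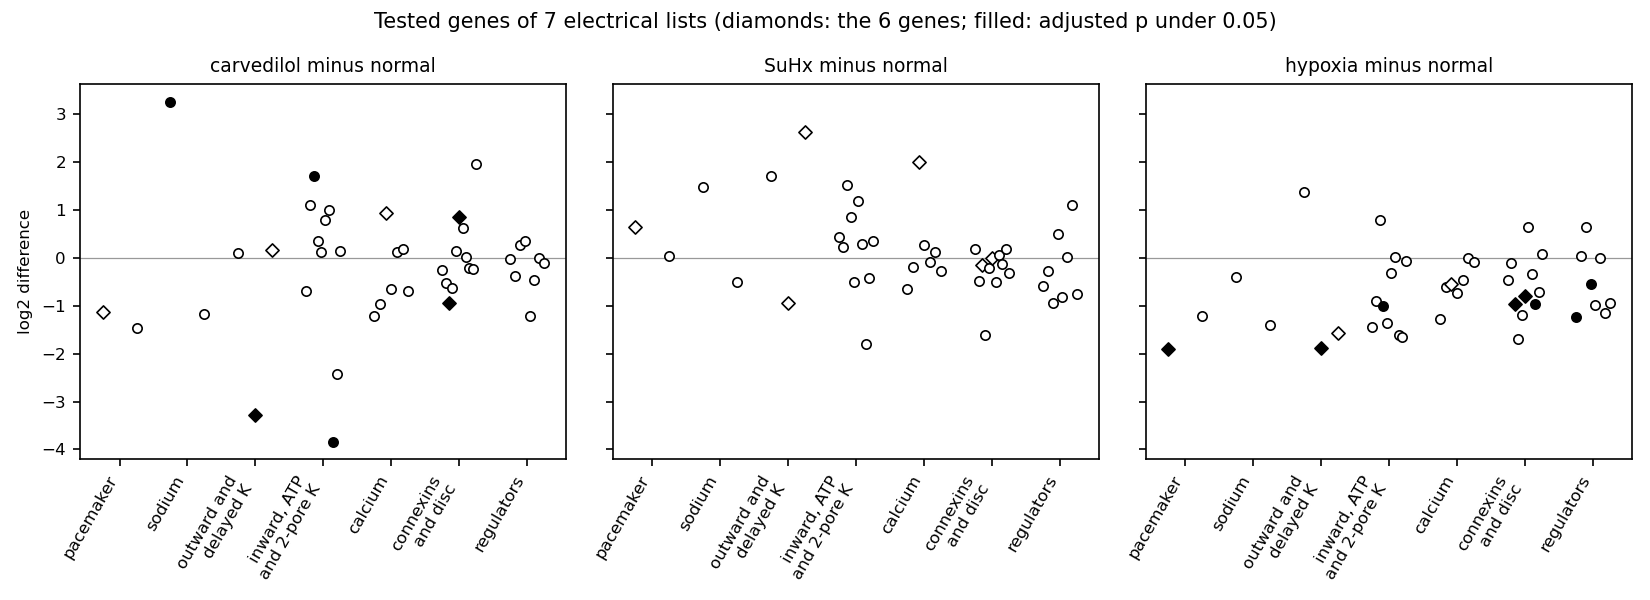
Log2 difference from normal (y axis) of the 43 tested electrical genes in 7 lists (x axis), for carvedilol, SuHx and hypoxia animals; diamonds are the 6 genes, filled symbols have an adjusted p under 0.05. In hypoxia 36 of 43 genes lie below 0, where the median over all genes is itself -0.38. Of the 43, 8 are called, and of the 37 that are not members 4, beside 11.2% of all genes called lower. In SuHx 22 lie below 0 and none is called.

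In carvedilol against normal 3 of the 43 rose and 3 fell, beside 2.18% of all genes higher and 8.34% lower. The median of the 43 was -0.02, against -0.32 over all genes. Without the 6 members 2 of 37 rose and 1 fell. Scn3b rose by 3.26 ± 0.47 (adjusted p = 0.000194) and Kcnj11 by 1.72 ± 0.48 (adjusted p = 0.0241), beside Gja5. The stretch-sensitive potassium channel gene Kcnk2 fell by 3.84 ± 0.68 (adjusted p = 0.00113), beside Kcnh2 and Gja1. Scn3b and Kcnk2 kept their calls without any 1 animal, and Kcnj11 lost it without carvedilol animal 5 or normal animal 5. In carvedilol against SuHx Hcn2 was the only one of the 43 called, beside 0.552% of all genes lower and 0.297% higher.

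In SuHx against hypoxia 7 of the 37 tested genes that are not members rose. With the members 11 of the 43 rose and none fell, beside 9.46% of all genes higher and 1.78% lower. The median of the 43 was 0.73, against 0.26 over all genes. Besides the 4 members those that rose were Scn3b (1.88), Kcnj12 (1.85), the sulfonylurea receptor gene Abcc8 (1.87), Jup (0.84), the desmosome gene Pkp2 (0.89) and the cardiac transcription factor genes Nkx2-5 (2.25) and Gata4 (1.05). Pkp2 lost its call in 6 of 12 omissions, Nkx2-5 in 4 and Abcc8 in 1, that of hypoxia animal 4. In carvedilol against hypoxia 10 of the 43 rose and 1 fell, beside 10.1% of all genes higher and 6.28% lower, with a median of 0.47 against 0.06. Beside Gja5 those that rose were Scn3b (3.66), Kcnj12 (1.36), Kcnj3 (1.50), Abcc9 (2.02), Cacna2d1 (0.57), Gja4 (1.33), Jup (0.75), Gata4 (0.89) and Ank3 (1.22), and Kcnk2 fell by 2.22. When 1 animal was left out, Kcnk2 and Gja4 each lost their call in 5 of 12 omissions, Kcnj3 and Ank3 in 4 and Abcc9 in 3. With animal number over 100 as a covariate, 3 of these 10 non-members kept their call, Scn3b, Jup and Gata4. Both comparisons rest on the same 6 hypoxia animals.

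The genes whose log2 ratios followed the members most closely over animals were found among 8217 candidates, with no p given. The animals of a group share their treatment, and the number of empty cells differed between groups. For Hcn2 they were Drd2 (Pearson r = 0.74), Limd1 (0.72) and Ctnna1 (0.71), over 24 animals each. For Kcnh2 they were L3hypdh (0.92, 22 animals), Slc25a23 (0.89) and Hnrnpd (0.87). For Gja1, as the mean of its probes, they were Agpat3 (0.83), Zfp3 (0.82, 23 animals) and Myl6b (0.81). For Gja5 they were Sptan1, Cmip and Crim1, each at 0.86. Within groups, after group means were taken out, r with Hcn2 was 0.36 for Drd2, 0.80 for Limd1 and 0.35 for Ctnna1. For the genes alike to Kcnh2 it was 0.77, 0.72 and 0.71, in the order named above. It was 0.73, 0.83 and 0.57 for those of Gja1 and 0.56, 0.53 and 0.62 for those of Gja5. Kcnip2 and Cacna1g had values in too few animals for such a list.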

How the data were processed

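Right ventricular RNA of 24 rats was compared with a reference RNA of 14 cell lines on 40 Agilent arrays with 2 colours. The submitters scanned into GenePix Pro 5.0 and applied lowess through marray, per the series' own description. Used here were the authors' deposited log2 ratios, Cy5 sample over Cy3 reference on every array. The base was read as log2 from a range of -13.6 to 14.0, although a second deposited table with the same values names log10. How background was subtracted and why 34.9% of cells are empty is not given in the sources used here. Signal over background was not examined.

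The 6 genes and all lists were chosen with earlier results of these data known, and the lists come from general knowledge. Of 43379 spots, 25353 had exactly 1 gene in the platform annotation, and genes rest on those. Spots of a probe and arrays of an animal were averaged. Probes with values in at least 4 of 6 animals of every group were kept, and the probes of a gene with a value were averaged in each animal. Means per group were fitted on 24 animals with limma 3.58.1 in R 4.3.3 (20 residual degrees of freedom), with Benjamini-Hochberg adjustment over 9775 genes or 21567 probes, two-sided, called under 0.05. The median SE was 0.43 for genes, and the number of arrays limits precision. Errors are SE unless named as SD. Probes that did not pass the filter had exact permutation tests (scipy). Other electrical genes are named where called, or where among the 2 lowest adjusted p of their list in hypoxia or SuHx against normal; alike genes are the 3 of highest r. The code was tested on simulated data. Nothing says that animals were paired across groups, and their label numbers all differ. The animal numbers 1 to 6 used here are the order of the labels within a group. Animals at the same place in that order correlated at -0.26 to 0.18 in their deviations from group means. Animal numbers over 100 in the labels belong to all carvedilol animals and hypoxia animals 5 and 6, so in carvedilol against normal and against SuHx they cannot be told apart from the group.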

Additional observations from a re-analysis of the deposited data

Results flagged for a closer look

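In 2 groups of the 61 examined for a single animal far from the rest, 1 animal stood apart, and chance alone flags about 1 in 20 groups. Kcnh2 read 1.84 in SuHx animal 4, while the next lowest of the 6 SuHx animals read 3.84. Without this animal, carvedilol against SuHx moved to -2.75 (adjusted p = 0.0222) and passed, SuHx against normal stood at -0.53 (adjusted p = 0.839) and SuHx against hypoxia at 1.36 (adjusted p = 0.124). The Gja1 probe A_44_P547197 read 2.42 in SuHx animal 3, while the next highest SuHx animal read 1.15. Without it, carvedilol against SuHx on this probe was -1.51 (adjusted p = 0.244).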

How the results depend on the processing

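Counts below are in the order hypoxia against normal, SuHx against normal, carvedilol against normal, SuHx against hypoxia, carvedilol against hypoxia and carvedilol against SuHx. Of the 6 genes 4, 0, 3, 4, 1 and 1 were called, and of all genes 1177, 89, 1028, 1099, 1606 and 83. Quantile normalisation moved the SuHx against normal count of all genes to 224. Arrays scaled to equal spread gave 1790 in hypoxia, 309 in SuHx against normal and 137 in carvedilol against SuHx, with 1 and 3 members in the last 2. Centred arrays gave 2 members in SuHx against hypoxia and 0 in carvedilol against SuHx. First technical arrays alone gave 14 genes in SuHx and 430 in carvedilol against normal and 1 in carvedilol against SuHx, with 1 member in hypoxia, 2 in SuHx against hypoxia and 0 in carvedilol against SuHx. All 40 arrays with the animal as a random block gave 232 and 327 genes in SuHx against normal and carvedilol against SuHx, and 2, 3 and 3 members in hypoxia against normal, carvedilol against hypoxia and carvedilol against SuHx. Values in 2 animals per group sufficing, all genes numbered 745, 43, 675, 717 and 37 (not counting carvedilol against hypoxia) and members 1, 1, 2 and 0 in hypoxia, carvedilol against normal, SuHx against hypoxia and carvedilol against SuHx. Values in all 24 animals gave 279 and 167 genes in SuHx against normal and carvedilol against SuHx, with 2 members in the last. The highest-ratio probe gave 154 genes in SuHx against normal and 2 members in hypoxia, where Hcn2 had an adjusted p of 0.0836. Fits of only the 2 groups gave 654, 428, 578, 553 and 1 genes, without carvedilol against normal, with 2 members in hypoxia and 0 in carvedilol against SuHx. Animal number over 100 as a covariate left 1 member in hypoxia and 2 in SuHx against hypoxia, and leaving out the hypoxia animals numbered over 100 gave 1, 2 and, in carvedilol against hypoxia, 2. Animal weights gave 1020, 2203 and 376 genes and 2, 5 and 2 members in SuHx and carvedilol against normal and carvedilol against SuHx. With the 2 sparsest hypoxia arrays removed, an alternative chosen after seeing the data, 217 and 195 genes were called in SuHx against normal and carvedilol against SuHx, with 2 members in the last. Probes centred before averaging, also chosen after seeing the data, and the other deposited table moved no count by over 1.5 times.

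No label pairs animals across groups. The replicate block, which took each animal's place in the order of its own group, gave 1084, 42, 923, 1018, 1502 and 38 genes and 4, 0, 3, 4, 1 and 0 members. Leaving out 1 animal gave 772 to 1178, 31 to 126, 713 to 989, 771 to 1121, 1418 to 1642 and 9 to 99 genes, and 1 to 4, 0 to 1, 1 to 3, 2 to 4, 1 to 2 and 0 to 2 members. No called difference of a member changed sign under any alternative; the cause of the moved counts was not tested. With SDs between arrays of up to 1.94 on probes with 1 spot, differences under about 1 could not be resolved for most of them.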
